A study of Homo sapiens with 13 samples.

Results

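The outer 2 Mb of the chromosome arms held 8403 of the 206927 accessible regions of H82 cells (4.06%) and 7967 of the 174093 regions of H146 cells (4.58%). A region was counted there when its centre lay within 2 Mb of an end of the hg38 sequence of chromosomes 2 to 13, 16, 17, 19, 20 or 22. This gave 32 ends on 17 chromosomes, because only the long-arm end of chromosomes 13 and 22 was used, and p and q mark the short-arm and long-arm ends. The rest of the same chromosomes held 148465 H82 and 128200 H146 regions. The outermost 10 kb of most ends is unread sequence (N) in hg38, so the telomere proper is for the most part not in the reference.

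H82 and H146 are established small cell lung cancer (SCLC) lines, of which the study assigns H82 to the NEUROD1 subtype and H146 to another. Open chromatin was mapped by ATAC-seq, which reads the DNA that the Tn5 transposase can reach and cut. H146 gave 4 untreated libraries and 3 from cells kept for 14 days in 100 nM FHD-286, which blocks SMARCA4 and SMARCA2, the motor subunits of the SWI/SNF chromatin remodeller, and H82 gave 3 of each. All were labelled wild type. Each line has 1 pooled list of regions, its atlas, which merges untreated and treated libraries and carries no height, read count or library of origin. There was thus 1 value per line, no test, and no comparison of FHD-286 with untreated cells. Intervals below are 95% intervals for counting error only. The number and depth of libraries, which decide how many regions are called, and the DNA copies of each arm cannot be told apart from the line. The transcription start site (TSS) of NEUROD1 had a region within 1 kb in H82 only, while INSM1, SYP and CHGA, and also POU2F3 and YAP1, which mark other SCLC subtypes, had one in both atlases.

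Telomeres are tandem copies of the hexamer TTAGGG that cap chromosomes and are bound by the shelterin complex. Inside them lie the subtelomeres, patchworks of segments that are duplicated between chromosome ends, followed by single-copy sequence that in many human arms is rich in G and C and in genes. Reads from duplicated segments can be placed on several ends, so a region there cannot be assigned to 1 copy with certainty.

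At some ends the outermost regions reached the telomere repeat itself. The region at 5p was 2362 bp wide in H82 and 2729 bp in H146, lay between genes, and held 183 hexamers in a row. The H82 regions at 12q and 10p held 58 and 49, and those at 22q, 2q and 12p held 20, 16 and 13. In H82 42 of the 8403 regions at ends held at least 2 hexamers in a row (0.500%, Wilson interval 0.370 to 0.675), against 39 of 148465 in the rest (0.0263%). In H146 these numbers were 41 of 7967 (0.515%, Wilson interval 0.380 to 0.697) and 33 of 128200 (0.0257%). Of the 42 and 41 regions at ends, 20 in each line lay within 100 kb of the end. Short runs also lay far inward. An H82 region of 17128 bp, centred 1146 kb from the end of 9q, held 2 in a row. With at least 4 in a row there were 24 H82 and 27 H146 regions at ends and 1 in the rest of each line, where the longest run was 5. Of those at ends, 16 in H82 and 17 in H146 lay within 100 kb. Of the 42 and 41 regions, 39 in each line overlapped a region of the other line (92.9% in H82, 95.1% in H146). Of all regions at ends 70.3% and 76.9% did, and over 24 chromosomes 59.3% and 70.5%. Among regions of at least 2 kb at ends, which include some of these, 96.9% and 99.8% did. Regions with runs of the hexamer were therefore listed in both atlases, mostly at the same places, and not only near the tip.

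The outermost region lay at a median of 11.2 kb from the end in H82 (10.1 to 116 kb) and 11.3 kb in H146 (10.1 to 130 kb), directly inside the unread sequence at many ends. It lay within 20 kb at 18 ends in H82 and 19 in H146, and within 100 kb at 30 and 27. The unread sequence ran to 60 kb at 3q, 5q, 6p, 6q, 8p, 8q, 9q, 11p, 17p, 19p and 20p. At 16q and 20q it ran to 110 kb. No region could lie within 20 kb at these ends, nor within 100 kb at 16q and 20q, so the distances partly follow the reference. At least 2 hexamers in a row were in 15 and 16 of these 32 outermost regions. A region was called multi-copy when at least 3 of 5 words of 31 bases spread along it occurred more than once in hg38, and this held for 26 and 27 of the outermost regions.

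Repeated sequence was most frequent in the outer 200 kb. Between 10 and 50 kb from the end 70.8% of H82 and 66.3% of H146 regions were multi-copy, between 50 and 100 kb 40.3% and 35.2%, between 100 and 200 kb 154 of 350 and 129 of 341 regions, between 200 and 300 kb 18.5% and 16.4%, and between 1750 and 2000 kb 8.82% and 4.17%. Over the whole 2 Mb the share was 13.1% in H82, against 9.35% in the rest, and 10.5% in H146, against 7.16%. By end it was highest at 4q, with 57.1% in H82 and 49.2% in H146, and lowest at 20p, with 3.45% and 2.50%.

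The 4q end also held the second widest H82 region of all ends. It ran from 190065296 to 190093223 on chromosome 4 (27928 bp) in intergenic sequence 52.0 kb from FRG2, had a GC content of 72.7%, and all 5 of its words were multi-copy. The following 60 bases, at chr4:190079261-190079320 on the plus strand, are shown because they occur 9 times inside this region, between 3293 and 3300 bp apart (median 3294 bp).
4q repeat: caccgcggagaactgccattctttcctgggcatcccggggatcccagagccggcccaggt
Reads from such an array cannot be assigned to 1 copy. A macrosatellite of this kind, D4Z4, carries copies of DUX4, a transcription factor of the early embryo, and its loss of repression causes facioscapulohumeral muscular dystrophy. In H146 7 regions of 486 to 9184 bp covered 77.0% of the same interval. The annotated DUX4 gene, the outermost protein-coding gene of 4q with its TSS 40.8 kb from the end, had a region of 1239 bp at the TSS in H82 and none in H146.

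Regions were packed about 2 times as densely at the ends as in the rest of the chromosomes. H82 had 134 regions per Mb of sequence at the ends and 68.5 in the rest, a ratio of 1.96 (1.92 to 2.00), and H146 had 127 and 59.1, a ratio of 2.15 (2.10 to 2.20). Regions covered 15.4% of the end sequence against 5.28% in H82, and 13.5% against 4.58% in H146. Regions within 1 kb of a protein-coding TSS were 2.75 and 2.86 times as dense, and those farther away 1.90 and 2.09 times. Shared regions, which overlap the other line by at least 1 bp, were 2.27 and 2.36 times as dense, and regions of 1 line only 1.48 and 1.66 times.

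The ends differed widely among themselves. In H82 density ran from 25.3 to 256 per Mb with a median of 144, and in H146 from 31.4 to 236 with a median of 121. It was higher than in the rest of the same chromosome at 25 ends in H82 and 26 in H146. The densest ends were 19p (256 per Mb), 20q (231) and 13q (225) in H82, and 20q (236), 13q (232) and 7p (219) in H146. The sparsest were the same in both, namely 4q with 25.3 in H82 and 31.4 in H146, 3p with 33.7 and 36.7, and 9p with 51.8 and 36.7. Summed by chromosome the ends were denser than the rest on 17 of 17 chromosomes in H82 and 16 of 17 in H146, with chromosome 3 at a ratio of 0.841 as the exception.

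**Figure D1:**
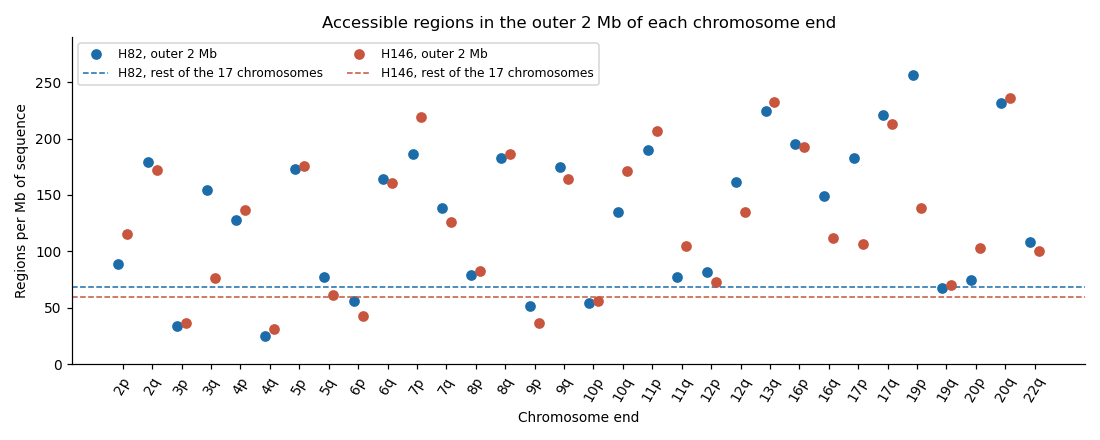
Accessible regions per Mb of sequence in the outer 2 Mb of each of the 32 chromosome ends (x axis, chromosome and arm), with 1 point per line and end and dashed lines for the rest of the 17 chromosomes. Densities run from 25.3 per Mb at 4q to 256 at 19p in H82, and the lines part most at 3q, 17p and 19p.

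Density did not climb steadily toward the tip. Between 10 and 50 kb the density was 118 per Mb in H82 and 138 in H146, and between 50 and 100 kb 103 and 98.1. The values between 10 and 50 kb come only from the ends with 10 kb of unread sequence. Density stood at 144 and 138 between 500 and 750 kb and at 145 and 138 between 1250 and 1500 kb. It then declined to 115 and 104 between 2000 and 2500 kb and to 76.2 and 70.5 between 9500 and 10000 kb. The limit of 2 Mb thus cut a gradual slope, and against the sequence 2 to 10 Mb from the same ends the ratios were 1.50 in H82 and 1.56 in H146. The farthest member lay 1999.12 kb from its end in H82 and 1999.21 kb in H146, and the nearest region outside the limit 2000.01 and 2000.45 kb.

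**Figure D2:**
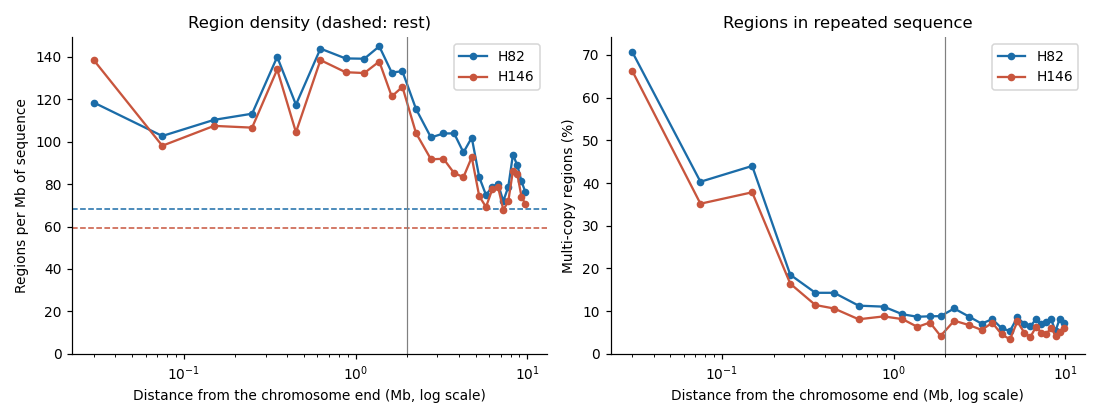
Region density (left, regions per Mb of sequence) and the share of multi-copy regions (right, %) against distance from the chromosome end on a log scale, over the 32 ends, with dashed lines for density in the rest of the 17 chromosomes and a vertical line at 2 Mb. H82 density peaks at 145 per Mb between 1250 and 1500 kb, while the multi-copy share falls from 70.8% in H82 and 66.3% in H146 at 10 to 50 kb.

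The end sequence itself was richer in G and C, at 49.5% against 40.6% in the rest. Over the 32 ends density went with the GC content of the end (Pearson r = 0.83 and Spearman rho = 0.82 in H82, 0.81 and 0.81 in H146) and less closely with genes per Mb (r = 0.58 and 0.51). These are descriptions of 32 ends that share an atlas and often sequence. The chromosomes were therefore cut into windows of 100 kb and compared by class of GC, a step chosen after the data were seen. Windows of 55% GC or more made up 23.8% of the ends and 0.760% of the rest, and there H82 had 229 regions per Mb at ends and 225 in the rest, and H146 218 and 194. Between 50 and 55% the values were 164 and 173 in H82 and 155 and 149 in H146. Between 45 and 50% they were 101 and 117 in H82 and 96.0 and 102 in H146. Between 40 and 45% they were 64.5 and 72.5 in H82 and 60.01 and 61.7 in H146. Below 40% they were 36.9 and 44.2 in H82 and 35.8 and 38.4 in H146. With the ends weighted to the GC classes of the rest, the ratio of 1.96 became 0.876 in H82 and that of 2.15 became 0.964 in H146. With the rest weighted to the GC classes of the ends instead, the ratio was 0.952 in H82 and 1.04 in H146. Ends were denser than the rest in 1 of 5 GC classes in H82 and in 2 of 5 in H146. Windows of 1 class can still differ in GC and genes.

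**Figure D3:**
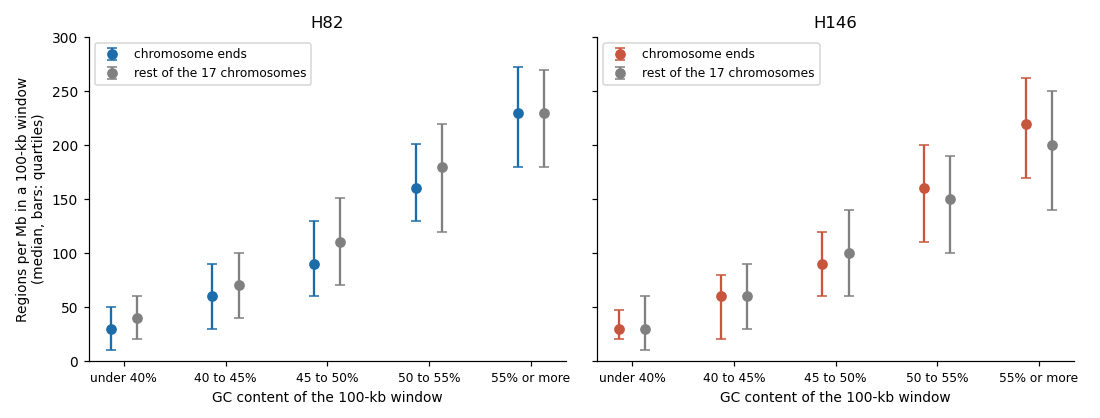
Regions per Mb in windows of 100 kb (y axis, median with bars for the quartiles) by GC content of the window (x axis), for H82 (left) and H146 (right), at chromosome ends (coloured) and in the rest of the 17 chromosomes (grey). Density climbs with GC in both, and within a class the quartiles of ends and rest overlap.

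The regions at ends were themselves rich in G and C. Their median GC content was 61.0% in both lines, against 49.0% in the rest in H82 and 48.9% in H146, and regions of at least 60% GC made up 56.0% against 14.0% in H82 and 55.6% against 14.3% in H146. The median was higher than in the rest of the chromosome at 30 of 32 ends in both lines and on 17 of 17 chromosomes. It was lowest at 3p, at 42.0% in H82 and 40.2% in H146, and highest at 16p in H82 (65.1%) and 19p in H146 (65.8%). The ratio of observed to expected CpG dinucleotides had a median of 0.354 against 0.216 in H82 and 0.342 against 0.210 in H146.

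Regions were also wider at the ends, with a median of 561 bp against 478 bp in H82 and 557 bp against 496 bp in H146. Regions of at least 2 kb made up 14.2% against 6.37% in H82 and 13.4% against 6.57% in H146. Called sites within 500 bp of each other had been merged, which can widen regions in dense stretches. The part of this merging in the width difference was not tested. By end the median ran from 372 bp at 11q to 821.5 bp at 9q in H82 and from 407 bp at 11q to 730 bp at 17q in H146, and it passed that of the rest of the chromosome at 22 and 21 of 32 ends. The widest H82 region at an end ran from 82076306 to 82108401 on chromosome 17 (32096 bp), near FASN, the fatty acid synthase, and the third widest from 136835139 to 136861715 on chromosome 9 (26577 bp), over PHPT1, a histidine phosphatase. The 3 widest of H146 ran from 82013597 to 82038104 on chromosome 17 (24508 bp), near CENPX, a subunit of a centromere and DNA repair complex, from 136837641 to 136860425 on chromosome 9 (22785 bp), again over PHPT1, and from 785928 to 806635 on chromosome 11 (20708 bp), near PANO1. Apart from the 4q array, these regions had at most 1 multi-copy word of 5.

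Most regions at ends were found in both lines. Of the H82 regions 70.3% (Wilson interval 69.3 to 71.3) overlapped an H146 region, against 60.6% in the rest and 59.3% over 24 chromosomes. Of the H146 regions 76.9% (Wilson interval 75.9 to 77.8) overlapped an H82 region, against 70.1% in the rest and 70.5% over 24 chromosomes. The share was higher than in the rest of the chromosome at 25 of 32 ends in both lines. It depended on how an overlap was counted: with at least 50% of both regions required, ends and rest differed by 0.283 percentage points in H82 (-0.784 to 1.35), and H146 regions at ends were shared less often than the rest, by -4.68 points (-5.78 to -3.58). At the width classes of the rest the share at ends was 67.1% in H82 and 74.7% in H146. By GC class the difference was small or turned, as among regions of 55 to 65% GC with 73.6% against 70.5% in H82 and 78.6% against 78.5% in H146, and among those below 45% with 55.5% against 57.0% and 52.9% against 63.4%.

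The share varied widely by end. The H82 share was lowest at 3q (38.0%), 19p (39.6%) and 17p (49.9%), where the H146 share was 89.2%, 92.5% and 85.2%. The H146 share was lowest at 3p (50.7%), 20p (52.0%) and 2p (54.6%), where the H82 share was 55.2%, 73.1% and 71.8%. At 6q and 13q both were high, with 85.5% and 86.2% at 6q and 86.5% and 85.1% at 13q. At 3p, which was sparse in regions, both were below the rest of the 17 chromosomes.

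**Figure D4:**
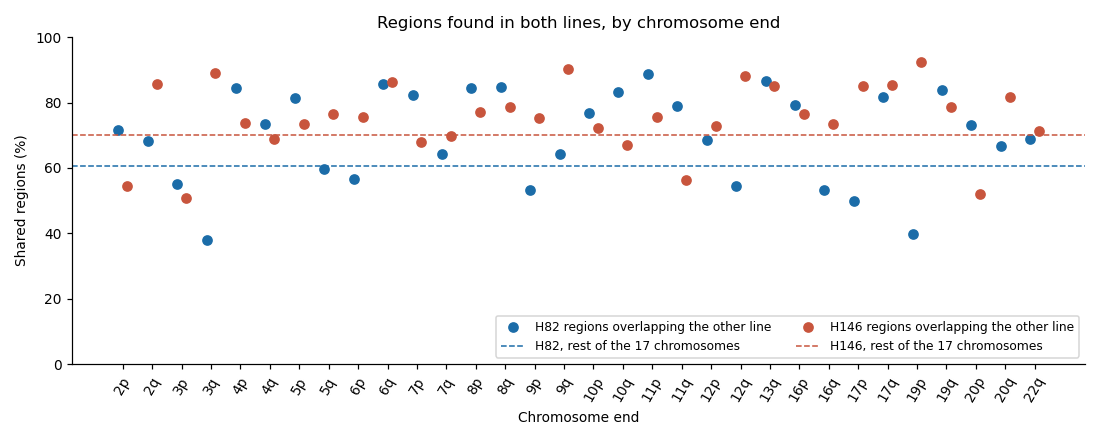
Share of regions that overlap a region of the other line by at least 1 bp (y axis, %) at each of the 32 chromosome ends (x axis), for H82 and H146, with dashed lines for the rest of the 17 chromosomes. At 3q, 17p and 19p H82 falls to between 38.0% and 49.9% while H146 stands between 85.2% and 92.5%.

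The lines differed in region number at particular ends. Over the 32 ends the log2 ratio of H82 to H146 regions was 0.08, against 0.21 in the rest, and each line had more regions at 16 ends. It was highest at 3q, with 300 H82 and 148 H146 regions and a log2 ratio of 1.02 (0.73 to 1.31), where the rest of chromosome 3 had 0.25. At 19p there were 497 and 268 regions and a log2 ratio of 0.89 (0.67 to 1.11), where the rest of chromosome 19 had 0.17. At 17p there were 347 and 203 and a log2 ratio of 0.77 (0.52 to 1.03), where the rest of chromosome 17 had 0.34. H146 had the most relative to H82 at 20p, with 145 H82 and 200 H146 regions (log2 ratio -0.46), at 11q with 153 and 208 (-0.44) and at 2p with 177 and 229 (-0.37).

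The interval of the end lay above the rest of its chromosome at 4 ends (3q, 16q, 17p and 19p), below it at 12 and over it at 16. These are counts of merged regions, and the share of sequence covered could go the other way. At 20q regions covered 37.2% in H82 and 26.2% in H146, at 9q 34.7% and 23.1%, and at 2q 24.1% and 17.3%. Of the 12 ends below, 2q, 7q, 9q, 13q, 17q and 20q were covered more in H82. The others, 2p, 5p, 7p, 10q, 11q and 20p, were covered more in H146. The ends of 1 chromosome could differ, most on chromosome 3, where the log2 ratio was 1.02 at 3q and -0.12 at 3p. Over the 32 ends the ratio of an end went little with that of the rest of its chromosome (Pearson r = 0.18, Spearman rho = 0.22, a description in which both ends of a chromosome share 1 rest). The stretch 2 to 10 Mb from the end set the 3 highest ends apart from each other: its log2 ratio was 1.12 at 19p, so the H82 excess ran on inward, 0.48 at 17p and 0.19 at 3q. DNA copies of each arm were not measured and their part was not tested.

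**Figure D5:**
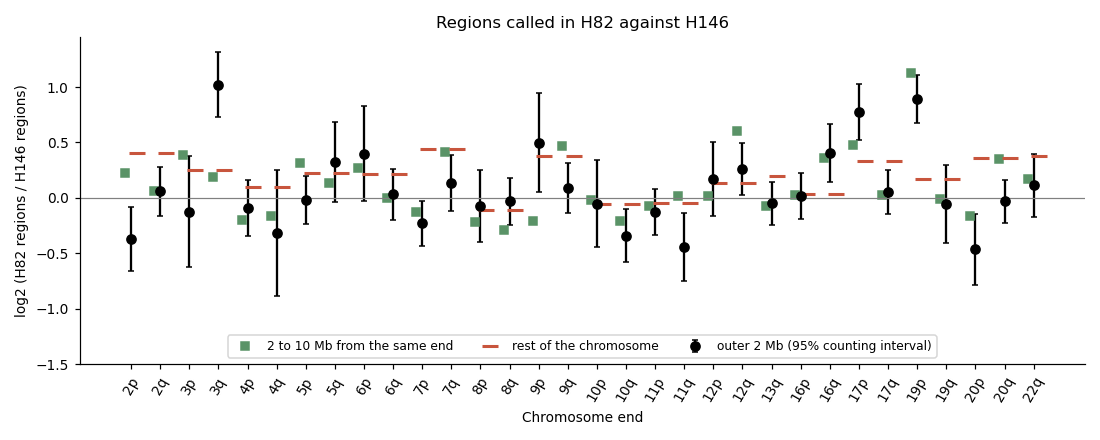
The log2 ratio of H82 to H146 region counts (y axis) at each of the 32 chromosome ends (x axis), with 95% counting intervals, beside the ratio of the stretch 2 to 10 Mb from the same end (squares) and of the rest of the chromosome (bars). 3q, 17p and 19p stand highest at 1.02, 0.77 and 0.89, and 20p lowest at -0.46.

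At 19p the H82 excess lay farther than 400 kb from the end. In the outer 400 kb there were 29 H82 and 27 H146 regions, and from 400 to 2000 kb 468 and 241, with H82 ahead in 15 of 16 windows of 100 kb and by a median of 13.5 regions. At 3q H82 had more in 17 of 20 windows and at 17p in 20 of 20. At 20p H146 had more in 14 of 20 and at 2p in 15 of 20. These ends were picked for their high or low ratios, so a lead in most windows follows partly from the choice. The limit of 400 kb was not planned. The 3 ends 3q, 17p and 19p held 660 of the 2497 H82-only regions at ends (26.4%) and 1144 of all 8403 H82 regions at ends. Over the other 29 ends the H82 share was 74.7% and the H146 share 75.8%, and the log2 ratio of region numbers was -0.02. The 3 ends were picked for their high ratio, so leaving them out lowers the ratio by construction. The ends with the lowest ratios were not left out in turn.

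The ends were rich in genes, with 1054 protein-coding genes or 16.8 per Mb against 6.59 in the rest. A region lay within 1 kb of the TSS, taken as the outermost 5′ end of the gene, in both lines for 919 of them (87.2%, Wilson interval 85.0 to 89.1), against 75.7% in the rest and 75.4% over 24 chromosomes. H82 only had one for 30 genes (2.85%, Wilson interval 2.00 to 4.03), against 4.64% in the rest and 5.10% over 24 chromosomes. H146 only had one for 25 (2.37%, Wilson interval 1.61 to 3.48), against 1.97% and 1.86%. Neither line had one for 80 (7.59%), against 17.7% in the rest and 17.7% over 24 chromosomes. When a region at the start of any annotated transcript was accepted, 970 genes had one in both lines (92.0%), against 82.2% over 24 chromosomes. Then 20 (1.90%) had one in H82 only, against 4.06%, and 18 (1.71%) in H146 only, against 1.48%. Exons of protein-coding genes held 13.6% of H82 and 13.8% of H146 regions at ends, against 8.53% and 9.21% in the rest. Introns held 45.9% and 44.6%, close to the 43.6% and 43.0% of the rest. Labelled as between genes were 30.4% and 31.1%, against 33.2% and 33.0%. A wide region with this label could still reach a gene, as did an H82 region of 17128 bp at 9q over the TSS of FAM166A.

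Of the 32 outermost protein-coding genes 23 (71.9%) had a region at the TSS in both lines, below the 87.2% of genes at ends and near the 75.4% over 24 chromosomes. When any transcript start was accepted, 26 of the 32 had one in both, against 92.0% of genes at ends and 82.2% over 24 chromosomes. Among the 23 were CHL1, a neural cell adhesion molecule at 3p, CACNA1B, a neuronal calcium channel at 9q, and MZF1, a zinc-finger factor at 19q. DUX4 and ANHX at 12q, a homeobox gene, had one in H82 only, and VIPR2 at 7q, a receptor for vasoactive intestinal peptide, in H146 only, although VIPR2 had one at another start in both. The 6 with none were OR4F3, OR4F21 and OR4F17, which are olfactory receptor genes, DEFB125, a defensin, PRDM7 and SCGB1C2, of which OR4F17 and PRDM7 had a region at another start in both lines. OR4F genes, DUX4 and PRDM7 have close copies elsewhere in the genome.

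Of the 26 genes of the nervous and neuroendocrine list that lie at ends, 24 (92.3%) had a TSS region in both lines, near the 87.2% of all genes at ends, as was the case for the chromatin genes (12 of 14, 85.7%) and the signalling genes (9 of 11, 81.8%). Each of the 26 had a TSS region in at least 1 line. MYT1, a neuronal zinc-finger factor at 20q, had a TSS region of 1806 bp in H82 and 1325 bp in H146, and regions covered 48.2% and 21.2% of the 10 kb to either side. PDYN, the precursor of dynorphin peptides, had a TSS region of 200 bp in H146 only, and 4 regions within 10 kb against 0 in H82. These regions were narrow and covered 4.31% of the 10 kb to either side. Of all H146 regions of exactly 200 bp at ends, 50.7% overlapped an H82 region. CACNA1H, a T-type calcium channel, had one of 496 bp in H82 only, but regions at the start of another transcript in both.

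SMARCA2, an ATPase of SWI/SNF and a target of FHD-286, lies at 9p with its TSS 1980 kb from the end, inside the limit by little. An H82 region of 1774 bp, from 1978920 to 1980693 on chromosome 9, lay at its outermost TSS, and H146 had no region within 10 kb of it. Both lines had a region at the start of another SMARCA2 transcript, so the gene was not without an accessible start in H146. ZMYND11, a reader of histone methylation at 10p, had none at its outermost TSS in either line and one at another start in both.

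The 8 genes for telomere and genome maintenance (TERT, RTEL1, TELO2, POLE, FANCA, RECQL4, RAD52 and RPA1) each had a region at the TSS in H82 and in H146, where 87.2% of all genes at ends did. TERT, the catalytic subunit of telomerase, lies 1295 kb from the end of 5p and had a TSS region of 2927 bp in H82, from 1293664 to 1296590, and 2584 bp in H146, from 1293644 to 1296227. The 10 kb to either side were covered to 40.9% and 46.7%. Among the signalling genes NOTCH1, the receptor that opposes neuroendocrine fate in these tumours, had a TSS region of 5854 bp in H82 and 4734 bp in H146. STK11, a kinase and tumour suppressor at 19p, had none at its outermost TSS in either line, but 5 and 4 regions within 10 kb and one at another start in both.

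Of the genes listed for other tissues 11 of 20 had a TSS region in both lines, against 87.2% of all genes at ends. Neither line had one for 5, and each line alone for 2. HBA1 and HBA2 were counted on the same region. With any transcript start accepted, 14 of the 20 had a region in both, against 92.0% of all genes at ends. The exceptions were AZU1 and the defensin genes DEFB125, DEFB126, DEFB127, DEFB128 and DEFB129, which lie close together at 20p. At 19p AZU1 and PRTN3, which encode granule proteins of neutrophils, had TSS regions of 1434 and 2961 bp in H82 and none in H146, and regions covered 53.2% and 55.3% of the 10 kb to either side in H82 against 7.83% and 12.8% in H146. PRTN3 had a region at another start in both lines. Their neighbour ELANE, the neutrophil elastase, had one of 2615 bp in H82 and 813 bp in H146. Of the 20p defensin genes DEFB126 had a TSS region of 244 bp in H146, and DEFB125, DEFB127, DEFB128 and DEFB129 had none in either line. Of the list genes with a TSS region in 1 line, AZU1, PRTN3, SMARCA2, DEFB126 and PDYN lie at ends where the same line also had more regions. CACNA1H, DUX4 and VIPR2 lie at 16p, 4q and 7q, where the counting interval of the log2 ratio of H82 to H146 spanned both directions. It was -0.19 to 0.23 at 16p, -0.89 to 0.25 at 4q and -0.11 to 0.39 at 7q.

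Of 11 genes from subtelomeric families 7 (63.6%) had a TSS region in both lines, against 87.2% of all genes at ends, with WASHC1, an actin regulator at 9p, at 1960 and 1692 bp and FAM110C at 2p at 2283 and 2548 bp. DUX4 had one in H82 only, and FRG2, OR4F21 and OR4F17 had none at the outermost TSS. Outside the lists, and named after their values were seen, SCT, the hormone secretin at 11p, and SSTR5, a somatostatin receptor at 16p, had a region at the outermost TSS in H146 only, although SSTR5 had one at another start in both. The KRAB zinc-finger genes ZNF418, ZNF671 and ZNF814 at 19q had one in H82 only. Of the 25 H146-only genes 6 lay at 11p, which has 68 genes, and 6 at 20p, which has 38, and of the 30 H82-only genes 4 lay at 19p, which has 70, and 4 at 19q, which has 78.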

How the data were processed

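ATAC-seq was performed on H146 (4 untreated, 3 treated with FHD-286) and H82 (3 and 3). According to the methods and the submitters' processing notes, the authors trimmed reads with Trim Galore 0.4.4, aligned them to hg38 with Bowtie2 2.3.4, removed duplicates with Picard, called peaks per sample with MACS2, removed blacklisted regions and merged peaks within 500 bp. The deposited values are the region starts, counted from 0, and ends in bp of that atlas. Positions here are 1-based. The files gave 0 columns of per-sample values, so depth per library is unknown, and a test of FHD-286 that was planned in case of counts was not run. H146 libraries came from separate sequencing batches, and the labels do not say which control was in which. Bowtie2 was run at its default settings, which report 1 placement for a read that matches several. Whether such reads were filtered later, and whether reads were shifted for the Tn5 cut, is not given in the sources used here, so values in repeated sequence are uncertain.

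Region GC, hexamers and repeated 31-base words were read from hg38, and genes from GENCODE release 44. Density is per Mb of sequence other than N. Sharing was an overlap of at least 1 bp, which differed from bedtools 2.31.1 for 0 regions. Shares have Wilson intervals, ratios of counts exact conditional intervals and medians order-statistic intervals, and intervals of differences hold the rest fixed. The functions were tested on simulated data. Python 3.11.15, numpy 2.4.6, pandas 2.3.3 and scipy 1.17.1 were used. The members, the gene lists and the naming rule were chosen with earlier results of these data known. The rule covered the outermost gene of each end, of which only a part is named here. It also covered the 3 densest and sparsest ends and those with the 3 highest and lowest line ratios. The 3 widest regions per line and up to 6 telomere repeat runs were included. So were list genes that differed between the lines, with SMARCA2, TERT, NOTCH1 and MYT1 in any case. Some list genes, markers and repeat sequences are not reported here.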

Additional observations from a re-analysis of the deposited data

How the results depend on the processing

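No paired analysis was possible because each line has 1 pooled atlas with no value per sample, and for the same reason leaving out a replicate was not possible. Densities of ends over rest (1.96 in H82, 2.15 in H146) were 1.88 and 2.07 within 1 Mb of the end, 1.50 and 1.56 against the sequence 2 to 10 Mb from the ends, 1.90 and 2.09 for regions over 1 kb from a TSS, 2.21 and 2.33 for regions of at least 500 bp, and 1.88 and 2.07 without multi-copy regions. At the window GC of the rest they turned to 0.876 and 0.964. With the rest at the window GC of the ends they were 0.952 and 1.04. The difference in median width (83 bp in H82, 61 bp in H146) was 66 bp in H82 against the sequence 2 to 10 Mb from the ends, 41 and 29.5 bp away from TSSs, and 102.5 bp in H82 without multi-copy regions. The difference in GC (12.0 and 12.1 points) was 10.9 and 11.0 within 1 Mb, 6.12 and 6.48 against the 2 to 10 Mb sequence, 12.2 and 12.5 away from TSSs, and 12.9 and 12.7 without multi-copy regions. The difference in sharing (9.72 and 6.74 points) was 10.8 and 7.68 within 1 Mb, 4.82 and 4.81 against the 2 to 10 Mb sequence, and 7.57 in H82 for regions of at least 500 bp. With overlap of at least 50% of both regions it was 0.283 points in H82 and -4.68 points in H146. Counting the start of any annotated transcript moved the genes with a region in both lines from 87.2% to 92.0% and in H82 only from 2.85% to 1.90%. The other 10 values moved by less than the counting interval. The cause was not tested. The alternatives without multi-copy regions, by window GC and by any transcript were chosen after seeing the data. Depth per library is unknown, so a region absent from an atlas cannot be told from one not detected.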
